A study of Mus musculus with 2 samples.

Results

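The cells described here were 4592 alveolar epithelial type II (AE2) cells of 18-month-old C57BL/6JRj mice, 2148 from saline-treated controls and 2444 taken 24 h after LPS at 2.5 mg/kg body weight. They were chosen by transcripts from 7544 deposited barcodes of old lungs, of which 6400 passed the limits of at least 500 detected genes and at most 20% mitochondrial UMIs (unique molecular identifiers, each counting 1 captured transcript). A cell was counted as AE2 when Sftpc made up at least 1% of its UMIs and at least 3 of Lamp3, Abca3, Slc34a2, Napsa, Lpcat1 and Etv5 had a UMI. It also had to hold no UMI of the leukocyte gene Ptprc, under 3 UMIs of the cilium genes Ccdc153 and Tmem212, and under 10% Scgb1a1. Over the whole series the same rule took 8181 of 14048 barcodes, 3589 of them from 3-month-old mice given saline or the same dose of LPS.

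All cells were sorted as EpCAM-positive (an epithelial surface protein) and free of the dead-cell dye DAPI. They came from lavaged, dispase-digested lungs whose agarose-filled airways had been removed, and beyond the strain the labels name no allele. The 4 groups (young control, young LPS, old control, old LPS) each carried their own hashtag antibody and were pooled on 1 droplet lane, and the experiment was repeated on another lane, which gives 2 libraries per group. The labels give neither the number or sex of the mice behind a library nor the route of the LPS, so a p-value here covers the variation from library to library and no more. No barcode was shared within a lane and 2 were shared between lanes.

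AE2 cells are the cuboidal cells of the alveolus that make surfactant, store it in lamellar bodies and serve as progenitors of the flat type I cells. They carry Toll-like receptor 4, the receptor for LPS (the outer-membrane lipopolysaccharide of gram-negative bacteria). Signalling from that receptor runs through MyD88 to NF-kappaB and through TRIF to type I interferon. In the inflamed lung AE2 cells are known as a source of chemokines for neutrophils and of acute phase proteins, which are plasma proteins made mostly by the liver.

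The AE2 libraries held 1057 and 1091 cells with 6222367 and 7808045 UMIs in the 2 old controls, and 1216 and 1228 cells with 10818251 and 11063050 UMIs in the 2 old LPS libraries. The median cell held 5820 and 7095 UMIs in the controls and 9051.5 and 9019 after LPS. Depth per cell therefore moved with treatment, and its part in the results below was tested only by thinning each cell to 2000 UMIs (closing section).

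The genes that chose the cells are given as a description. Their levels are in CPM, the UMIs of a gene per 1000000 AE2 UMIs of the library after TMM scaling between libraries, and levels of different genes are not set against each other. Sftpc, which encodes surfactant protein C, stood at 214032 and 227990 CPM in the 2 old controls against 50420.4 and 78301 CPM in the 2 old LPS libraries. Abca3, the lipid pump of the lamellar body membrane, stood at 861 and 862 CPM against 299.5 and 485 CPM. Lamp3, a lamellar body membrane protein, stood at 1302 and 1345 CPM against 999 and 1273 CPM. All 3 were present in each library, but the rule had picked the cells by these genes, so their presence is no test of the AE2 label. In each of the 3 both LPS libraries lay below both controls, for Lamp3 by a small margin in old LPS 2. Sftpc made up a median of 21.9% and 23.2% of a control cell's UMIs and 3.96% and 4.91% after LPS, so the 1% minimum acted mainly on the LPS libraries: without it the rule took 1060 and 1093 control cells and 1273 and 1417 LPS cells. Between 1% and 2% lay 152 and 224 of their AE2 cells and none of the controls. Just below the minimum, at 0.5% to 1%, lay 30 and 124 further LPS cells and again none of the controls.

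The second old LPS library stood apart from the first. Of the 817 genes that fell by over 2-fold, 666 (81.5%) had a within-lane ratio nearer to 0 in lane 2, with a median log2 ratio of -1.22 against -1.72 in lane 1. Of the 899 genes that rose by over 2-fold, 673 (74.9%) did, with medians of 1.47 and 1.81. The levels of the genes that the results turn on are therefore given by library, lane 1 first within each group; other genes are given by their fitted fold change.

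The comparison of old LPS with old control asks how the AE2 transcriptome of an aged lung stood 1 day after LPS. UMIs were summed over the AE2 cells of each library and fitted with edgeR's quasi-likelihood test, all 8 libraries in 1 fit, with Benjamini-Hochberg adjustment over 11347 genes and a threshold of 0.05. LPS raised 2681 genes (23.6% of those tested) and lowered 2394 (21.1%). By over 2-fold, 899 rose (7.92%) and 817 fell (7.2%), and by over 8-fold 190 rose and 42 fell. All 5075 called genes had the same sign in both lanes; 15 of them are mitochondrial genes or genes of the cell rule, for which the call is a description only. The counts shifted with single libraries: 1486 genes were lower without old control 2 and 2849 without old LPS 2, and by over 2-fold 543 were lower without old LPS 1 and 1232 without old LPS 2.

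**Figure D1:**
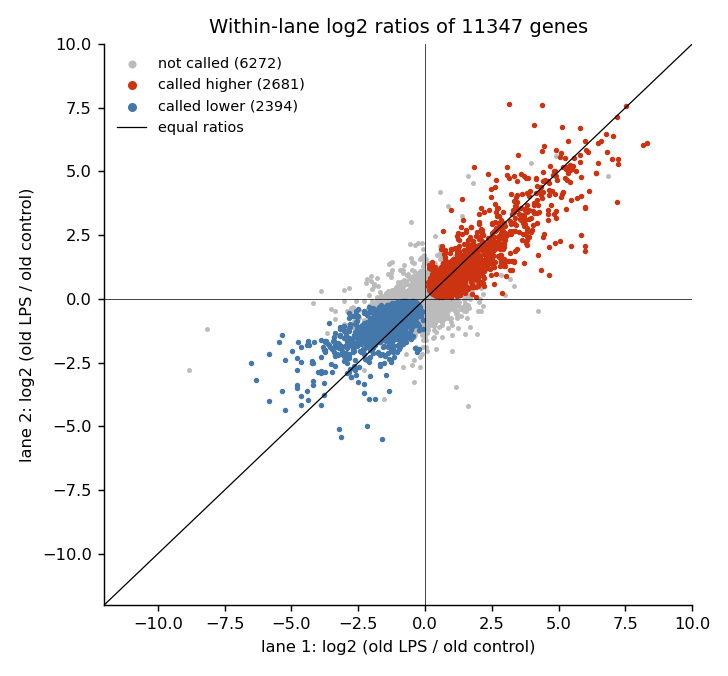
Each point is 1 of 11347 genes, placed by its log2 ratio of old LPS to old control in lane 1 (horizontal) and lane 2 (vertical). Red points are the 2681 genes called higher and blue points the 2394 called lower; many of the strongly changed genes lie between the line of equal ratios and the horizontal axis, which is a ratio nearer to 0 in lane 2.

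Most of the 12 largest increases were in genes of secreted proteins. Csf3, the granulocyte colony-stimulating factor, had 0 and 4 UMIs in the old controls and 1329 and 766 after LPS, and its fitted log2 fold change was 8.38 ± 0.87 (SE; edgeR adjusted p = 0.00157). Since it rests on 4 control UMIs, that estimate was 7.56 without old control 1 and 12.53 without old control 2. Orm1, an acute phase lipocalin of plasma, stood at 16.7 and 11.3 CPM in the controls and at 3063 and 2174 CPM after LPS, a log2 fold change of 7.56 ± 0.29 (189-fold); it was as frequent in ciliated cells of the same libraries (values below). Il4i1, a secreted amino acid oxidase, stood at 17.8 and 14.4 against 1965 and 1291 CPM (log2 fold change 6.67 ± 0.39). In each of the 3 both LPS libraries lay above both controls, and old LPS 2 lay below old LPS 1. Tnfaip2, a gene induced by tumour necrosis factor, went from 2.02 and 2.38 CPM to 186 and 172 CPM (6.32 ± 0.61). Slfn2, an interferon-inducible Schlafen gene, went from 0.623 and 0.753 CPM to 91.6 and 69.0 CPM (6.82 ± 0.26).

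**Figure D2:**
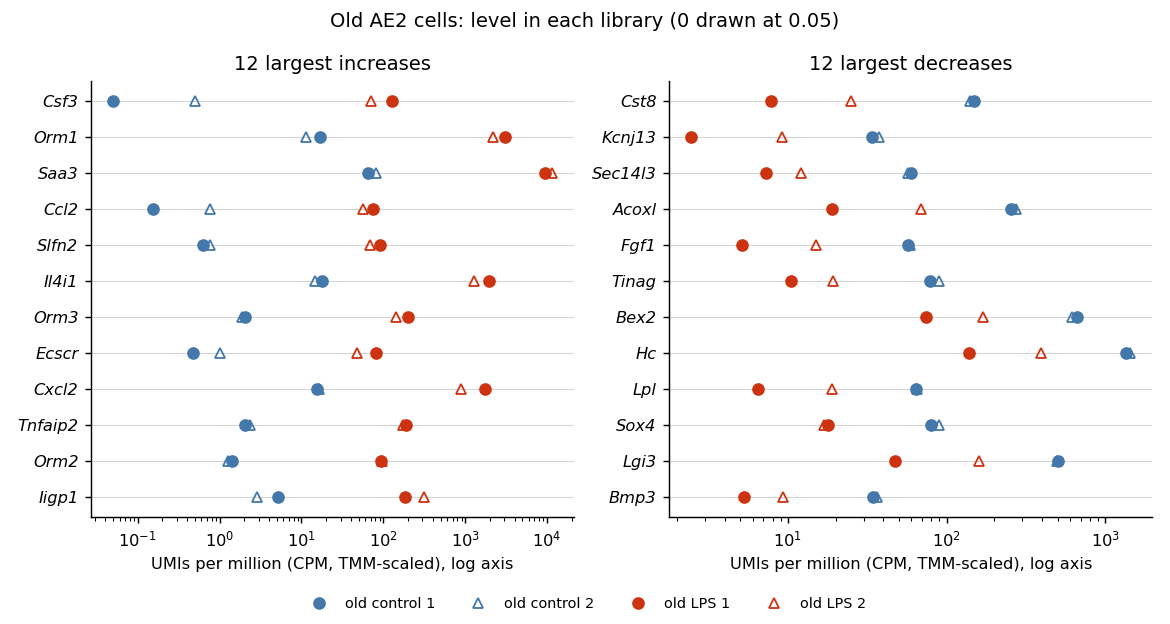
Level of the 12 genes with the largest increase and the 12 with the largest decrease in old AE2 cells, in CPM on a log axis, for each of the 4 old libraries (a level of 0 is drawn at 0.05). For each gene both LPS libraries lie on 1 side of both controls; among the decreases old LPS 2 lies nearer to the controls than old LPS 1 for every gene except Sox4.

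Gene lists are counted below over the members that passed edgeR's filter on low counts. Outside it stayed, for example, 6 of 19 listed acute phase genes, 5 of 16 colony-stimulating factors and cytokines and 3 of 30 antiviral genes. A member that passed through its LPS libraries alone had to be higher, so the counts and medians describe the lists. Each count is to be read beside the 23.6% of all genes tested that rose and the 21.1% that fell. Of 11 measured genes of the LPS receptor and its adaptors, 5 rose and none fell (median log2 fold change 0.32, against -0.01 over all genes tested). Cd14, which hands LPS to the receptor, stood at 71.2 and 89.7 CPM in the old controls and at 2079 and 1539 CPM after LPS (log2 fold change 4.49 ± 0.18, edgeR adjusted p = 4.61e-08). Ly96, the co-receptor that binds the lipid, rose from 5.45 and 6.65 to 17.4 and 16.6 CPM, and Lbp, the LPS-binding protein, rose from 82.5 and 95.2 to 190.2 and 198 CPM. Myd88, the adaptor to NF-kappaB, rose 2.09-fold. The receptor itself did not pass the test. Tlr4 stood at 11.7 and 11.4 CPM in the controls and at 8.82 and 8.23 CPM after LPS (log2 fold change -0.44 ± 0.17, edgeR adjusted p = 0.0507). It was called lower in 5 of the 14 alternative analyses, with edgeR adjusted p from 0.0271 with library size scaling to 0.0485 without cells holding markers of other types, and 0.0447 with lane as a block.

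Of 16 genes of NF-kappaB and its feedback, 15 rose and none fell (median 1.82). The increases were larger for the inhibitors than for the subunit Rela. Nfkbia, which encodes the inhibitor IkappaB alpha, went from 52.2 and 54.6 CPM to 886 and 571 CPM (log2 fold change 3.77 ± 0.21). Tnfaip3, the ubiquitin-editing enzyme A20, went from 4.67 and 4.89 to 56.7 and 43.5 CPM (3.38 ± 0.18), and Zc3h12a, a ribonuclease that degrades cytokine messages, from 3.58 and 4.14 to 69.2 and 54.2 CPM (3.98 ± 0.18). Rela itself stood at 30.7 and 28.1 against 42.9 and 38.9 CPM (0.48 ± 0.12, edgeR adjusted p = 0.00416; 0.0696 without old control 2 and 0.253 with cells thinned to 2000 UMIs). Icam1, the adhesion molecule that neutrophils bind, rose 4.57-fold, from 159 and 179 CPM to 856 and 688 CPM.

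The listed chemokines that draw neutrophils split. Of 5 measured, 4 rose and 1 fell. Cxcl2 stood at 15.4 and 16.4 CPM in the old controls and at 1749 and 892 CPM after LPS (log2 fold change 6.37 ± 0.61, edgeR adjusted p = 0.00169). Cxcl1 stood at 18.2 and 19.6 against 836 and 664 CPM (5.31 ± 0.20), Cxcl3 at 10.3 and 7.65 against 184 and 207 CPM (4.46 ± 0.22), and Cxcl5 at 39.9 and 49.8 against 672 and 639 CPM (3.87 ± 0.16). In these 4 the libraries of the groups lay far apart. Cxcl15, also called lungkine and made by resting lung epithelium, went the other way, from 9922 and 11388 CPM to 3829 and 6777 CPM (log2 fold change -1.01 ± 0.26, edgeR adjusted p = 0.023). In edgeR its call was lost without old control 1 (adjusted p = 0.0501), without old control 2 (0.0847) and with no filter on low counts (0.0865).

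Of 7 other measured chemokines 6 rose and none fell (median 2.56), but a chemokine of the list was called lower without old control 2. The calls of Ccl2 and Cxcl10 were lost without old control 1 and without old control 2. Their log2 fold changes were then 6.41 and 8.56 for Ccl2 and 6.22 and 5.50 for Cxcl10. Cxcl10 was also not called without old LPS 1 (5.93). Ccl20, which draws dendritic cells and lymphocytes through CCR6, went from 15.3 and 12.2 to 845 and 512 CPM (5.64 ± 0.71), and Cxcl16, a transmembrane chemokine, from 39.4 and 38.4 to 286 and 173 CPM (2.56 ± 0.29). Of 11 colony-stimulating factors and cytokines 7 rose and none fell. Csf2, which encodes GM-CSF, the factor that alveolar macrophages depend on, went from 20.6 and 17.4 to 308 and 196 CPM (3.73 ± 0.25), and Csf1, the macrophage colony-stimulating factor, from 2.65 and 4.89 to 33.3 and 24.2 CPM (2.89 ± 0.25). The alarmin Il33 was not called, at 387 and 381 against 397 and 353 CPM (-0.03 ± 0.12, edgeR adjusted p = 0.837).

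The promoters of Cxcl1 and Cxcl2 are printed because these neighbouring genes rose together and carry the same match to a kappaB-type sequence. In the RefSeq sequence of GRCm38.p6 the 150 bases before the start of Cxcl1 lie at chr5:90891095-90891244 and those of Cxcl2 at chr5:90903749-90903898, both on the plus strand. Capitals mark the match, read 5′ to 3′:
Cxcl1: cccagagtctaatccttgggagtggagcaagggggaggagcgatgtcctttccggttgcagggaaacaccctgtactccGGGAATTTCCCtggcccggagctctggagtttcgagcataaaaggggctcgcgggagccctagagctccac
Cxcl2: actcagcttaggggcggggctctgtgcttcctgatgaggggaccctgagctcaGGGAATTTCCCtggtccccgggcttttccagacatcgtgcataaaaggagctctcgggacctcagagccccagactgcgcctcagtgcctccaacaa
The motif searched was GGGANNTTCC on either strand, and each run of capitals holds a match on both strands that overlap by all but 1 base. In Cxcl1 the run starts 71 bases before the start and in Cxcl2 97 bases before it. Such a match stood in 3 of the 4 promoters found for the listed neutrophil chemokines. It stood in 1 of 13 promoters of NF-kappaB and its feedback, and in 0.788% of all 32851 promoter windows of that length.

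Acute phase plasma proteins rose as a group. All 13 measured members passed the test upwards (median log2 fold change 3.62). The call of Itih4 was lost with no filter on low counts (log2 fold change 1.29, edgeR adjusted p = 0.054). Its log2 fold change was 1.14 without old control 2. Saa3, an acute phase apolipoprotein, stood at 65.3 and 81.7 CPM in the old controls and at 9457 and 11544 CPM after LPS (7.16 ± 0.19, edgeR adjusted p = 2.42e-10). Hp, the haemoglobin scavenger haptoglobin, went from 1080.4 and 1074 to 14293 and 12117 CPM (3.62 ± 0.12), and Cp, the copper oxidase ceruloplasmin, from 9.81 and 7.90 to 392 and 286 CPM (5.27 ± 0.21). C3, the central complement component, rose 7.22-fold and Lrg1 5.09-fold. Saa3 was higher in old LPS 2 than in old LPS 1, unlike Hp and Cp.

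Among 12 measured antimicrobial and iron-handling proteins 6 rose and 2 fell (1 fell without old control 1 or without old LPS 1). Lcn2, the siderophore-binding lipocalin, went from 2399 and 2239 CPM to 90604 and 60621 CPM (5.03 ± 0.18, 32.6-fold). Fth1, the ferritin heavy chain that stores iron, went from 3888 and 3449.8 to 64979.7 and 46704 CPM (3.93 ± 0.14), and Slpi, an inhibitor of neutrophil elastase, from 137 and 109 to 2411 and 1934 CPM (4.14 ± 0.14). Lyz2, the lysozyme of AE2 cells and macrophages, fell 1.69-fold, from 34715 and 37842 to 17519.5 and 25450.1 CPM.

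Ciliated cells of the same libraries, which should make little AE2 product, show how much of these transcripts was present outside AE2 cells. At 2000 UMIs per cell, Lcn2 averaged 173 and 106 UMIs in AE2 cells after LPS and 10.2 and 7.87 UMIs in ciliated cells, and 4.60 and 4.26 against 0.947 and 0.848 UMIs in the controls. Il4i1 had a UMI in 84.5% and 54.8% of AE2 cells after LPS and in 3.95% and 5.10% of ciliated cells. Cxcl2 had a UMI in 57.7% and 32.4% of AE2 cells and in 2.37% and 2.04% of ciliated cells. Orm1 differed from these, with a UMI in 81.5% and 61.3% of AE2 cells and in 82.2% and 66.3% of ciliated cells, so the Orm1 share in AE2 cells did not exceed that in ciliated cells. In the AE2 cells of the same libraries with few Lcn2 UMIs (described below) Orm1 averaged 0.0263 and 0.0334 UMIs, against 5.75 and 4.75 in the other AE2 cells, and where the Orm1 UMIs of ciliated cells came from was not tested. Saa3 had a UMI in 59.5% and 57.1% of AE2 cells and in 19.4% and 26.5% of ciliated cells. The median depth before thinning was 9051.5 and 9019 UMIs in these AE2 cells and 6201 and 6811 UMIs in the ciliated cells.

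The promoter of Saa3, at chr7:46715677-46715826 on the minus strand of GRCm38.p6, is printed as that of a strongly induced acute phase gene. Capitals mark, in order, a match to the interferon-response-type sequence GAAANNGAAA and a match to the C/EBP-type sequence TTNNGCAA, read 5′ to 3′ along the gene:
Saa3: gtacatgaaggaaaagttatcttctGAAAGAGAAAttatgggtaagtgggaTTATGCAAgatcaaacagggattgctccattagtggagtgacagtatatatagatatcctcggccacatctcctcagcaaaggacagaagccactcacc
Both motifs were searched on either strand. TTNNGCAA stood in 6 of 10 promoters of the acute phase list and in 5.46% of all windows. Cebpd and Cebpb, which encode factors that bind C/EBP sequences, rose 4.01-fold and 2.42-fold, while Cebpa, the family member of the resting cell, fell 2.46-fold.

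Interferon-stimulated genes rose almost without exception. Of 27 measured antiviral members 26 rose and none fell (median 4.02, or 3.88 with 5 members that had at most 3 UMIs in the old controls set to their lower bound). Ifitm3, which blocks virus entry at membranes, went from 19.2 and 13.8 CPM to 1058 and 699 CPM (5.75 ± 0.41, edgeR adjusted p = 0.000307). Isg15, a ubiquitin-like modifier, went from 7.63 and 6.52 to 354 and 246 CPM (5.41 ± 0.26), and Bst2, which tethers budding virus, from 44.7 and 40 to 427 and 402 CPM (3.29 ± 0.18). Of 13 interferon receptors and transcription factors 8 rose and none fell. Irf7, a factor that amplifies interferon production, went from 3.43 and 2.26 to 53.1 and 43.9 CPM (4.11 ± 0.21).

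The interferon-inducible GTPases, large proteins that attack vacuoles of intracellular microbes, rose in 13 of 14 cases (median 3.64, or 3.61 with 4 members at their bound). Gbp2 went from 5.45 and 4.14 CPM to 188 and 221 CPM (5.43 ± 0.29) and Iigp1 from 5.14 and 2.89 to 183 and 318 CPM (5.99 ± 0.55). These were genes in which old LPS 2 was the higher library. At 2000 UMIs per cell Iigp1 had a UMI in 16.0% and 18.4% of AE2 cells after LPS, against 9.88% and 12.2% of ciliated cells.

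The promoters of Isg15 (chr4:156200819-156200968, minus strand) and Gbp2 (chr3:142620513-142620662, plus strand; both GRCm38.p6) stand for the antiviral genes and the GTPases. Capitals mark matches to GAAANNGAAA on either strand, 3 overlapping ones in Isg15 and 1 on the opposite strand in Gbp2, read 5′ to 3′ along the gene:
Isg15: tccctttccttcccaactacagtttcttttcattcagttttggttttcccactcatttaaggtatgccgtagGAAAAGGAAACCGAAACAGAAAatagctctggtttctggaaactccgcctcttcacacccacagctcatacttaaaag
Gbp2: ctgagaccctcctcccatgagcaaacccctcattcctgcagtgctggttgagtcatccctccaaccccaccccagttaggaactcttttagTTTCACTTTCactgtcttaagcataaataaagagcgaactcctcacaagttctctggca
The match in Gbp2 lies 59 to 50 bases before the start, and those in Isg15 lie 78 to 57 bases before it. Among the lists, 8 of 9 GTPase promoters in the table and 6 of 21 antiviral promoters held the motif, against 1.59% of all windows and none of 17 windows of the fatty acid and phospholipid synthesis list.

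Class I antigen presentation rose in 19 of 20 members (median 1.95). B2m, the light chain, stood at 377 and 359 CPM in the old controls and 852 and 959 CPM after LPS (1.30 ± 0.11, edgeR adjusted p = 4e-07). H2-K1, a classical heavy chain, rose 2.12-fold, Tap1, a subunit of the peptide transporter, 6.65-fold, and Psmb8, a catalytic subunit of the immunoproteasome, 5.33-fold. Class II genes, which AE2 cells also make, rose in 8 of 10 members and fell in 1 (median 0.74; 5 rose without old LPS 2). Cd74, the invariant chain, rose 1.81-fold from 3067 and 3426 CPM to 6010.1 and 5748 CPM, while H2-Aa stood at 869.8 and 1008 against 978 and 1132 CPM (0.17 ± 0.13, edgeR adjusted p = 0.308).

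**Figure D3:**
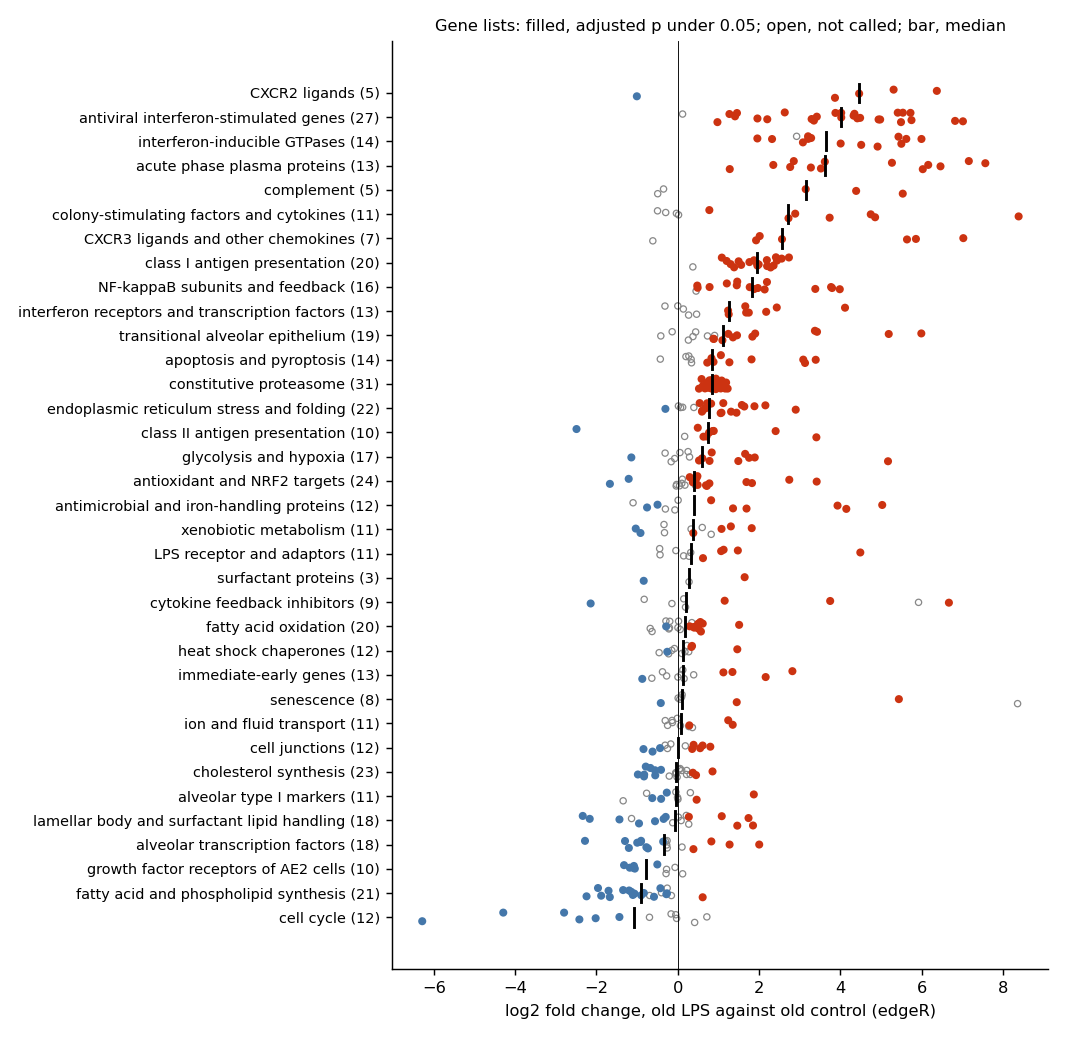
Each point is 1 gene of a list, placed by its log2 fold change in old LPS against old control (edgeR); filled points passed an adjusted p of 0.05, red higher and blue lower, open points did not, and the black bar is the list's median. The number of measured genes stands beside each list; inflammatory lists lie to the right of 0, and fatty acid synthesis, growth factor receptors and cell cycle genes to the left.

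The surfactant proteins that the cell rule did not use moved apart. Sftpd, the collectin surfactant protein D, rose from 4013 and 4523 CPM to 13261 and 13414 CPM (1.64 ± 0.11, edgeR adjusted p = 1.57e-08). Sftpb, which spreads the lipid film, fell from 8621 and 8911 to 3639 and 6167 CPM (-0.84 ± 0.22, edgeR adjusted p = 0.0207; 0.0672 without old control 1, 0.0776 without old control 2 and 0.0766 with thinned cells). Sftpa1, the other collectin, stood at 25826 and 26669 CPM against 26571 and 37014 CPM (0.28 ± 0.13, edgeR adjusted p = 0.0989; called higher, at 0.50, without old LPS 1 and, at 0.29, with no filter on low counts). Both LPS libraries were on 1 side of the controls for Sftpd and Sftpb, and for Sftpa1 the first LPS library lay between the controls.

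The 18 measured genes of lamellar bodies and surfactant lipid handling also split, with 5 higher and 7 lower (median -0.06; 4 lower without old control 2 and 9 without old LPS 2). Of all genes tested 23.6% rose and 21.1% fell (median -0.01), and the list was not tested as a set. Prdx6, a peroxiredoxin with phospholipase activity, rose 3.6-fold, Cd63, a membrane protein of late endosomes, 3.34-fold, and Ctsh, a protease of surfactant protein processing, 2.76-fold. Pla2g1b, a secreted phospholipase, fell 2.7-fold, from 224 and 212 CPM to 56.8 and 104 CPM. Lpl, lipoprotein lipase, fell from 64.0 and 64.9 to 6.45 and 18.9 CPM (-2.34 ± 0.48, edgeR adjusted p = 0.0167; 0.0519 without old control 1 and 0.057 without old control 2); its log2 fold change was -3.32 without old LPS 2.

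Factors that keep alveolar identity fell more often than they rose. Of 18 measured alveolar transcription factors 9 fell and 4 rose (median -0.33). Nkx2-1, the master regulator of lung epithelium, stood at 319 and 336 CPM in the old controls and at 174 and 209.7 CPM after LPS (-0.77 ± 0.10, edgeR adjusted p = 3.17e-05). Cebpa went from 247 and 224 to 73.3 and 118 CPM (-1.30 ± 0.20), Foxa2 from 75.8 and 69.8 to 40.9 and 46.6 CPM (-0.73 ± 0.11), and Elf5 from 46.3 and 41.3 to 16.3 and 21.6 CPM (-1.20 ± 0.14). Sox4, an SRY-box factor, fell evenly in both lanes, from 80.0 and 89.3 to 17.9 and 16.9 CPM (-2.28 ± 0.11). The receptors through which AE2 cells receive growth signals fell in 6 of 10 cases and rose in none (median -0.78). Among them Fgfr2 fell 2.11-fold, from 221 and 228 to 92.5 and 120.3 CPM, and Met, the receptor of hepatocyte growth factor, 2.08-fold.

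Genes of fatty acid and phospholipid synthesis, which supplies the lipid of surfactant, fell in 16 of 21 cases and rose in 1 (median -0.9; 20 of 21 had the lane 2 ratio nearer to 0). Scd1, a stearoyl-CoA desaturase, stood at 6081 and 5878 CPM in the old controls and at 862 and 1662 CPM after LPS (-2.24 ± 0.36, edgeR adjusted p = 0.00726). Elovl1, a fatty acid elongase, went from 1199 and 1419 to 308 and 514 CPM (-1.67 ± 0.23), and Acly, which makes cytosolic acetyl-CoA, from 265 and 272 to 86.3 and 125 CPM (-1.34 ± 0.14). Fasn, fatty acid synthase, fell 2.09-fold and Srebf1, the transcription factor of the pathway, 2.15-fold. The member that rose was Cept1, which joins choline or ethanolamine to lipid (1.53-fold). Cholesterol synthesis was mixed, with 8 of 23 lower and 3 higher (median -0.04; 5 lower without old control 2). Fatty acid oxidation had 9 of 20 higher and 1 lower (6 higher without old control 2, 8 higher and 6 lower without old LPS 2, and none lower without any 1 of the other old libraries); Acadl, an acyl-CoA dehydrogenase, rose 2.84-fold, from 110.0 and 115 to 357 and 282 CPM.

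Protein folding and degradation rose together. Of 22 genes of endoplasmic reticulum stress and folding 17 rose and 1 fell (median 0.77; none fell without old control 1, without old control 2 or without old LPS 1). Sdf2l1, a partner of the chaperone BiP, went from 15 and 15.4 CPM to 116 and 111 CPM (2.90 ± 0.13, edgeR adjusted p = 2.02e-10), Manf, a secreted stress factor, from 114 and 122 to 547 and 506 CPM (2.15 ± 0.10), and Calr, the chaperone calreticulin, from 223 and 241 to 909 and 803 CPM (1.88 ± 0.12). All 31 measured subunits of the constitutive proteasome rose, by small steps (median 0.85, from 0.52 ± 0.11 for Psmc6 to 1.23 ± 0.15 for Psmb5). That count was 31 in each analysis that left out 1 old library, with library size scaling and with DESeq2, and in all 31 the lane 2 ratio was the nearer to 0.

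Of 24 antioxidant genes and NRF2 targets 15 rose and 2 fell (median 0.41); 9 rose without old control 2 and 10 with DESeq2. Sod2, the mitochondrial superoxide dismutase, went from 154 and 165 CPM to 1958 and 1444 CPM (3.42 ± 0.13, edgeR adjusted p = 1.63e-10). The 2 that fell were Cat, the peroxide-degrading catalase (467 and 429 against 143 and 244 CPM, -1.21 ± 0.24), and Gstm1, a glutathione transferase (72.0 and 78.4 against 19.4 and 27.8 CPM, -1.67 ± 0.17). Of 17 genes of glycolysis and hypoxia 9 rose and 1 fell; Hif1a went from 53.3 and 52.8 to 167 and 131 CPM (1.49 ± 0.12).

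In the transitional alveolar state AE2 cells on their way to type I cells express keratins. Of 19 measured genes listed for this state 12 rose and none fell (median 1.1). Sox4, which fell (above), was not on this list. Clu, the extracellular chaperone clusterin, went from 88.6 and 92.1 CPM to 1005 and 934 CPM (3.42 ± 0.16, edgeR adjusted p = 8.9e-09). Tnip3, an inhibitor of NF-kappaB that the list shares with inflammatory responses, went from 3.89 and 3.14 to 270.2 and 174 CPM (5.99 ± 0.40). Krt8 went from 122 and 135 to 401 and 258 CPM (1.36 ± 0.20) and Krt18, its partner, from 143 and 142 to 288 and 236 CPM (0.88 ± 0.11). Krt19 rested on 1 library: it stood at 15.4 and 18.1 against 44.5 and 18.7 CPM (0.90 ± 0.51, edgeR adjusted p = 0.216), and its log2 fold change was 1.40 without old LPS 2 (edgeR adjusted p = 0.000218) and 0.15 without old LPS 1. Markers of the type I cell itself were mixed, 2 of 11 higher and 3 lower, near the 23.6% and 21.1% of all genes tested. These counts changed when an old library was left out. Ager stood at 833 and 999 CPM in the controls and 847 and 925 CPM after LPS (-0.05 ± 0.10, edgeR adjusted p = 0.733).

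Cell cycle genes fell in 6 of 12 cases and rose in none (median -1.07; 2 rose without old LPS 2), from low levels. Top2a, a topoisomerase of dividing cells, had 4.83 and 4.89 CPM in the old controls and 0.190 and 0.274 CPM after LPS (-4.29 ± 0.52, edgeR adjusted p = 1.11e-05), and Ccnd2, a G1 cyclin, went from 26.9 and 26.5 to 8.82 and 10.9 CPM. Mki67, also a gene of dividing cells, did not fall with them. It averaged 0.00574 and 0.00743 UMIs per thinned cell in the old controls and 0.00744 and 0.00996 after LPS, which are few UMIs. Whether fewer cells were dividing after LPS was not tested. Among 14 apoptosis and pyroptosis genes, 9 were called higher and none lower. Fas, the death receptor, went from 3.11 and 2.76 to 37.3 and 24.4 CPM (3.39 ± 0.24).

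Among the largest decreases were genes of secreted and transport proteins. Cst8, a cystatin, stood at 148 and 141 CPM in the old controls and at 7.77 and 25 CPM after LPS (-3.14 ± 0.57, edgeR adjusted p = 0.0135). Sec14l3, a lipid transfer protein, went from 60 and 57.2 to 7.30 and 12.1 CPM (-2.59 ± 0.18), and Kcnj13, a potassium channel, from 34.1 and 37.5 to 2.46 and 9.24 CPM (-2.60 ± 0.46). Without old LPS 2 the log2 fold change was -4.21 for Cst8 and -3.86 for Kcnj13, and without old LPS 1 it was -2.53 and -1.95. Bmp3, a bone morphogenetic protein, went from 34.3 and 36.3 to 5.31 and 9.33 CPM (-2.26 ± 0.25), and Fgf1, a fibroblast growth factor, from 57.0 and 58.6 to 5.12 and 15 CPM (-2.51 ± 0.45; -3.49 without old LPS 2). Hc, complement component C5, stood at 1352 and 1441 against 138 and 394 CPM (-2.39 ± 0.53, edgeR adjusted p = 0.0246). In edgeR its call was lost without old control 1 (adjusted p = 0.0694) and without old control 2 (0.0782), and its log2 fold change was -1.82 without old LPS 1 and -3.34 without old LPS 2. The epithelial barrier was mixed: of 12 measured cell junction genes 5 rose and 3 fell (median 0.01). Cldn18, the main alveolar claudin, fell 1.54-fold and Ctnnb1, beta-catenin, fell 1.79-fold. Of 11 measured genes of ion and fluid transport 3 rose and none fell. Scnn1a, a subunit of the sodium channel that clears alveolar fluid, rose 2.55-fold.

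Single cells show in part how the second LPS library differed. Each cell was thinned to 2000 UMIs and those with under 20 Lcn2 UMIs were counted; this range was chosen after the values were seen, and it is a range, not a cell type. Under 20 lay 38 of 1209 cells (3.14%) of old LPS 1 and 299 of 1205 cells (24.8%) of old LPS 2, against 1016 of 1045 and 1049 of 1077 cells of the old controls. Few cells lay near the limit, with 8 and 34 cells at 15 to 24 UMIs. With a limit of 10 UMIs there were 24 and 242 cells, and with 40 UMIs 47 and 334. The young LPS libraries held 29 of 781 (3.71%) and 86 of 927 (9.28%) such cells. The low-Lcn2 cells of the 2 old LPS libraries had a median of 396.5 and 423 Sftpc UMIs, against 77 and 69 in the other LPS cells and 441 and 462 in the low-Lcn2 cells of the 2 controls.

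Their hashtag counts did not set them apart. The dominant hashtag held a median of 98.5% and 98.7% in the low-Lcn2 cells and 98.7% in both sets of other LPS cells. Their depth was lower, with a median of 5622 and 6303 UMIs before thinning against 9141 and 10092 in the others. Over the genes changed by over 2-fold with at least 0.2 UMIs per cell, the low-Lcn2 cells of old LPS 2 were nearer to old control 2 than the other cells of that library in 174 of 190 genes that rose (91.6%) and in 61 of 75 that fell (81.3%). The cells were picked by Lcn2, which rose after LPS, and the genes by their change in these same libraries. Large counts were thus favoured in advance and only describe the cells. Lcn2 itself was not taken out of the genes that rose, and the share over all genes was not counted. Saa3 averaged 0.140 UMIs per cell in the low-Lcn2 cells of old LPS 2, 25.7 in the other cells of that library and 0.162 in old control 2. Whether these cells had met LPS in the animal was not tested, and the library's fold changes are those of the mixture. The other cells of old LPS 1 and old LPS 2 differed as well. Lcn2 averaged 178 and 140 UMIs in them, Sftpb 6.91 and 10.4 and Hc 0.246 and 0.547, nearer to the controls in old LPS 2. Saa3, at 17.9 and 25.7, went the other way. How much of the difference between the libraries lay in the low-Lcn2 cells was not tested.

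**Figure D4:**
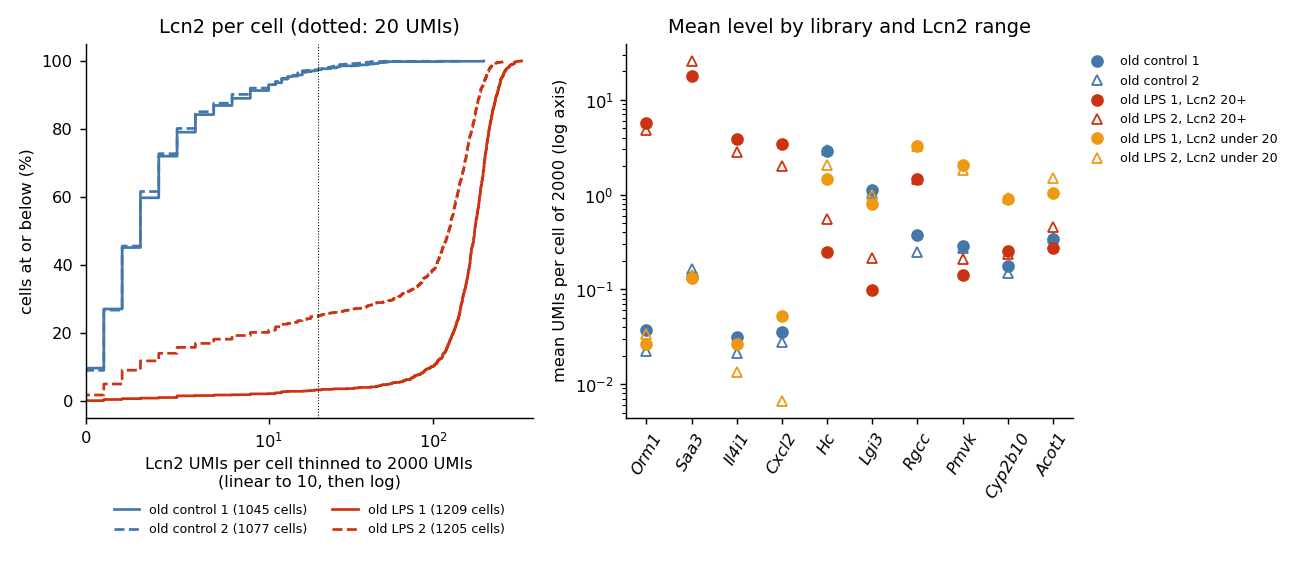
Left, share of cells (%) at or below each Lcn2 count, in cells thinned to 2000 UMIs, for the 4 old libraries; the dotted line is 20 UMIs, below which lie 3.14% of old LPS 1 and 24.8% of old LPS 2 cells. Right, mean UMIs per thinned cell (log axis) of 10 genes in the controls and in LPS cells above and below 20 Lcn2 UMIs; Orm1, Saa3, Il4i1 and Cxcl2 are near the controls in the low cells, and Rgcc, Pmvk, Cyp2b10 and Acot1 are above them.

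These cells did not match the controls in every gene. The 20 genes with the highest ratio of low-Lcn2 old LPS 2 cells to old control 2, among those also above the other cells of that library, were read in the other 3 LPS libraries. The low-Lcn2 cells were above both the control of their lane and age and the other LPS cells in 17 of the 20 genes in old LPS 1, in 18 in young LPS 1 and in 15 in young LPS 2. In all 3 libraries 13 genes were, and Sult1a1, Clic4, Scnn1a, Tinagl1, Actn1, Furin and Traf1 were not. The share of all genes that meet both conditions was not counted, so these counts only describe the 20 genes. They rest on 38, 29 and 86 low-Lcn2 cells, and some margins were small. In young LPS 1, for example, Chp1 averaged 0.138 UMIs in the low-Lcn2 cells and 0.137 in the control. The genes described next were picked from the 20 with their values in every library known. Rgcc, a regulator of the cell cycle and of complement responses, averaged 0.375 and 0.250 UMIs per thinned cell in the old controls, 3.24 and 3.26 in the low-Lcn2 LPS cells and 1.46 and 1.47 in the other LPS cells. Pmvk, a kinase of the mevalonate pathway, averaged 0.289 and 0.274 in the controls, 2.03 and 1.83 in the low-Lcn2 cells and 0.140 and 0.208 in the others. Cyp2b10, a cytochrome P450, averaged 0.175 and 0.148, then 0.895 and 0.920, then 0.255 and 0.238. Acot1, an acyl-CoA thioesterase, averaged 0.339 and 0.348, then 1.05 and 1.50, then 0.272 and 0.458. In the low-Lcn2 cells of the young LPS libraries Rgcc averaged 4.38 and 3.24 and Pmvk 1.03 and 1.66, against 0.238 and 0.256, and 0.285 and 0.438, in the young controls. In the sums, Rgcc rose (189 and 117 against 764 and 887 CPM, 2.44 ± 0.21, edgeR adjusted p = 7.42e-05). Pmvk stood at 148 and 135 against 92.7 and 257 CPM (0.30 ± 0.57, edgeR adjusted p = 0.707), and its log2 fold change turned to -0.61 without old LPS 2; Acot1 was 0.49 ± 0.37 and turned to -0.15.

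The old response was set against that of young AE2 cells by the interaction of age and LPS in the same fit. It called 47 of 11347 genes (0.414%), 30 with a larger log2 fold change in the old (0.264%) and 17 with a smaller one (0.15%). These counts rest on single libraries: without old LPS 2 they were 399 and 541, without old LPS 1 they were 67 and 59, and without old control 2 they were 12 and 11. Without old control 1 edgeR called none, with 388 larger and 338 smaller at an unadjusted p under 0.05, and each interaction named below then had an adjusted p of 0.0789 or more. DESeq2 called 34 and 22 over all libraries. With cells thinned to 2000 UMIs edgeR called 10 and 5, and with no filter on low counts 140 and 116.

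Among the genes with a larger log2 fold change in the old were a regulator and a receptor of cytokine signalling. Socs3, the feedback inhibitor of cytokine receptors, stood at 43.8 and 46.2 CPM in old controls and 108 and 92.4 CPM after LPS, and at 92.8 and 75.1 against 67.7 and 74.8 CPM in the young (interaction 1.38 ± 0.17, edgeR adjusted p = 0.00414). Osmr, the oncostatin M receptor, stood at 26.8 and 35.9 against 92.0 and 73.9 CPM in the old and at 46.0 and 46.9 against 51.2 and 46.8 CPM in the young (1.32 ± 0.20, edgeR adjusted p = 0.00781). In both genes the old controls were below the young controls, and with thinned cells Osmr was no longer called (adjusted p = 0.163). Cd14 rose at both ages, by 4.49 in the old and 2.85 in the young on the log2 scale (interaction 1.63 ± 0.23, edgeR adjusted p = 0.0191). Il33 differed in another way: it was not called in the old and fell in the young, from 431 and 378 to 158 and 205 CPM (1.12 ± 0.17, edgeR adjusted p = 0.00781; 0.0659 without old control 2).

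**Figure D5:**
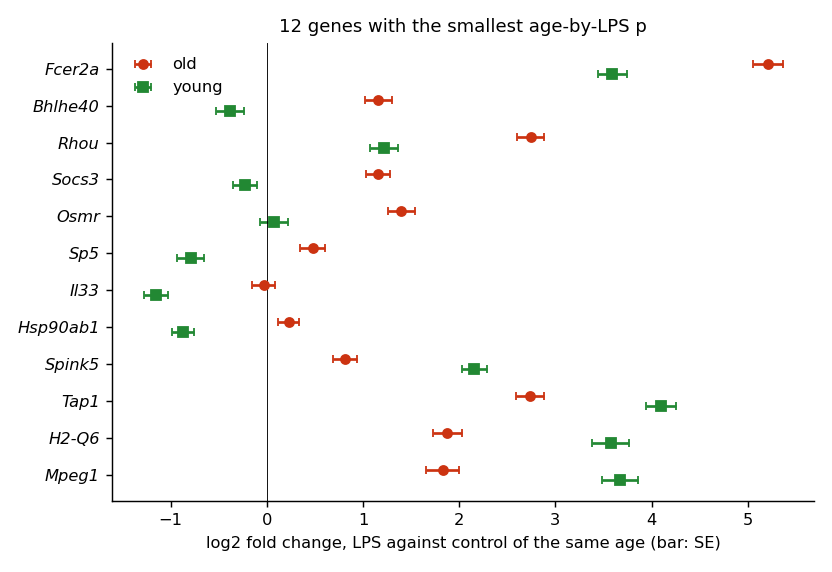
Log2 fold change of LPS against control of the same age in old (red circles) and young (green squares) AE2 cells, with its SE as a bar, for the 12 genes with the smallest interaction p among genes of at least 20 CPM in any group. The upper 8 had a larger log2 fold change in the old and the lower 4, Spink5, Tap1, H2-Q6 and Mpeg1, a smaller one.

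Class I antigen presentation genes rose less in the old by the fitted values. Of its 20 measured genes 7 (11 without old LPS 2) had a smaller log2 fold change by the interaction and none a larger one, and in 20 of 20 the old value was below the young, against 5637 of 11347 genes (49.7%) in which it was above. Tap1 rose by 2.73 ± 0.15 in the old and 4.10 ± 0.15 in the young (interaction -1.36 ± 0.21, edgeR adjusted p = 0.00781; 0.0736 without old control 2 and 0.331 with thinned cells). B2m stood at 377 and 359 against 852 and 959 CPM in the old and at 180.3 and 195 against 1018 and 803 CPM in the young (-0.98 ± 0.16, edgeR adjusted p = 0.0121; 0.067 without old control 2). After LPS its levels at the 2 ages overlapped, and both old controls lay above both young controls. For Tap1 the old controls, at 16.0 and 16.7 CPM, were near the young at 12.8 and 16.2 CPM, and the levels after LPS were 102 and 116 against 284 and 222 CPM. H2-Q6 and H2-Q7 are near-identical copies whose reads may be split in counting, so their interactions of -1.70 and -1.53 are uncertain.

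Krt18 and Clu of the transitional list had a larger log2 fold change in the old. Over its 19 measured genes the median log2 fold change was 1.1 in the old and 0.28 in the young, 17 of 19 were above the young value, and 2 passed the interaction test. Without old LPS 2 there were 9 larger interactions, and without old LPS 1 there was 1 larger and 1 smaller. Krt18 rose by 0.88 ± 0.11 in the old and stood at 0.06 ± 0.11 in the young (interaction 0.82 ± 0.15, edgeR adjusted p = 0.0237; 0.153 without old control 2 and 0.167 with thinned cells). Clu rose by 3.42 ± 0.16 and 2.07 ± 0.15 (1.36 ± 0.20, edgeR adjusted p = 0.0143), a call lost when any 1 old library was left out (adjusted p from 0.0705 to 0.248).

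Markers of other cell types in the AE2 sums were mostly at or near 0. Of 8 T and NK cell markers 5 had no UMI in the 4 old sums and the others under 20, and all 7 fibroblast markers had under 20. Some markers of other types moved with LPS. Plet1, of alveolar macrophages, rose from 14.8 and 11.5 to 68.4 and 53.1 CPM while 7 of the 9 macrophage markers had under 20 UMIs in all. Cd68, a lysosomal protein of macrophages, rose from 2.34 and 3.51 to 29.4 and 34.5 CPM, with 8 of the 10 monocyte and macrophage markers under 20 UMIs. Pf4, a platelet chemokine, rose from 19.6 and 22.3 to 208 and 169 CPM with 5 of the 6 erythroid and platelet markers under 20. The endothelial sum went from 21.9 and 22.2 to 34.8 and 31.5 CPM, with Pecam1 its most frequent marker (620 UMIs) and 5 of 7 under 20. Of the 2 endothelial markers tested 1 rose and 1 fell. Ciliated markers were lower in the sums after LPS, from 74.7 and 80.6 to 23 and 36.7 CPM over the list, and club cell markers from 144 and 94.6 to 66.1 and 45.0 CPM. Their part in the results was not tested; with cells holding 3 or more UMIs of an immune, endothelial or fibroblast list left out, 2582 genes rose and 2258 fell.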

How the data were processed

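The deposited tables hold UMI counts per gene and cell barcode, made by the authors with no scaling, together with the hashtag counts that assign each barcode to a group; the submitters' processing notes list bcl2fastq, STAR, Cell Ranger 3.1.0, R 3.6.3, Seurat 3.1 and 3.1.5, and the build mm10, without saying what each did. The library kit was 10x 3ʹ v3, per the labels' protocols. Of 31053 gene rows, 119 without a symbol kept their identifier, and 4 hashtag rows stayed out of all sums. No doublet caller was run; doublets with leukocytes, ciliated and club cells were limited by the marker rule, and leaving out the highest 3% of UMI totals was an alternative.

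UMIs were summed per library and fitted with edgeR 4.0.16 (limma 3.58.1, R 4.3.3; filterByExpr, TMM factors from 0.976 to 1.03, robust quasi-likelihood fit, 8 libraries in 4 groups, 4 residual degrees of freedom), with Benjamini-Hochberg adjustment over all 11347 genes tested. The SE was the log2 fold change divided by the square root of F. The p-values are two-sided. DESeq2 1.42.0 was an alternative, as were library size scaling, no filter on low counts, the 4 old libraries alone, lane as a block, other cell limits, thinning to 2000 UMIs and leaving out each old library. Leaving out cells with 3 or more UMIs of other cell types' markers was added after seeing the data. The scripts were tested on simulated data (Python 3.11.15, pandas 2.3.3, numpy 2.4.6, scipy 1.17.1).

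The labels describe each lane as a replica experiment that holds all 4 groups, so lanes pair the libraries; deviations of same-lane libraries from their group means correlated from -0.0293 to 0.29 over 4500 genes (old control with old LPS: -0.0166). The cell rule, gene lists and named genes were chosen with earlier results of these data known. Named genes were the 12 largest called changes in each direction with a mean of at least 20 CPM over the old libraries, the 12 smallest interaction p-values among genes of at least 20 CPM in any group, and the members of each list with the largest changes or level; other list members were named for their role with their values known, and Rgcc, Pmvk, Cyp2b10, Acot1, Klf9 and Fmo2 were chosen after their values were seen. Promoters were the 150 bases before the gene start in RefSeq (GRCm38.p6).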

Additional observations from a re-analysis of the deposited data

Results flagged for a closer look

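The interaction of age and LPS in edgeR gave 30 genes with a larger and 17 with a smaller log2 fold change in old than in young AE2 cells. Among the 12 with the smallest p, the interaction was positive for Socs3 (1.38), Bhlhe40 (1.54), Rhou (1.53), Hsp90ab1 (1.10), Sp5 (1.27), Il33 (1.12), Fcer2a (1.61) and Osmr (1.32). It was negative for Spink5 (-1.34), Mpeg1 (-1.84), H2-Q6 (-1.70) and Tap1 (-1.36). Each of the 12 kept its sign and lost its call without old control 1, with log2 values of 1.34, 1.63, 1.51, 1.09, 1.12, 1.13, 1.59 and 1.13 for the first 8 in that order and -1.38, -1.90, -1.59 and -1.39 for the other 4. With cells thinned to 2000 UMIs the calls of Bhlhe40, Sp5, Fcer2a, Osmr, Mpeg1, H2-Q6 and Tap1 were lost as well. Their edgeR adjusted p then ranged from 0.0764 for Sp5 to 0.575 for H2-Q6. Bhlhe40, a transcriptional repressor, stood at 35.8 and 31.5 CPM in old controls and 85.0 and 64.9 CPM after LPS, and at 60.7 and 52.3 against 40.2 and 45.6 CPM in the young. Hsp90ab1, a cytosolic chaperone, stood at 571 and 576 against 746 and 595 CPM in the old and at 871 and 748 against 453 and 429.9 CPM in the young. Spink5, a protease inhibitor, stood at 48.3 and 50.6 against 77.2 and 96.4 CPM in the old and at 34.2 and 27.5 against 138 and 134 CPM in the young.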

How the results depend on the processing

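Of 2245 values of 162 named results under 14 alternatives, 2143 kept direction and call, 85 were no longer called, 12 were newly called and 5 turned direction, the last among genes that were not called (Il33, Ager, Pmvk and Acot1). Without old control 1, 33 named results lost their call, and without old control 2, 20 did. With lane as a replicate block edgeR called 2705 genes up and 2449 down (899 and 821 past 2-fold), and the interaction gave 44 and 22; among the named values only Tlr4 (-0.44, edgeR adjusted p = 0.0447) and Lgi3 (-2.39, 0.0504) changed call. Genes called higher numbered 1469 with cells thinned to 2000 UMIs and 1871 to 3055 when 1 old library was left out. Genes called lower numbered 1469 with DESeq2, 1153 thinned and 1486 to 2849 with 1 library left out. Lower by over 2-fold were 502 thinned and 543 to 1232 with 1 library left out. Interactions larger in the old were 140 with no filter on low counts, 10 thinned and 0 to 399 with 1 library left out; smaller ones were 116 with no filter, 36 without the Sftpc minimum, 5 thinned, 11 without cells holding other types' markers and 0 to 541 with 1 library left out. The count of 0, from edgeR without old control 1, had 388 larger and 338 smaller at an unadjusted p under 0.05. Library size scaling gave 2361 higher and 2809 lower. With 1 library left out, Il33 ranged from -0.12 to 0.05, Ager from -0.17 to 0.09, Pmvk from -0.61 to 0.86 and Acot1 from -0.15 to 0.93. In fits without 1 old library, the remaining single library of its group was taken to vary like the other groups. The cause of these shifts was not tested. Thinning removes reads, so genes of low level lose calls by construction. A difference with 2 libraries per group that misses the threshold was not detectable at this depth and replication.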

Other observations

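Xenobiotic metabolism was a further group outside the comparisons above: of 11 measured genes 4 rose and 2 fell in old AE2 cells after LPS, against 23.6% and 21.1% of all genes, and without old control 2 the counts were 2 and 1. Klf2, a transcription factor of the Krüppel-like family, went from 4.67 and 3.76 CPM to 33.7 and 25.4 CPM (2.82 ± 0.22, edgeR adjusted p = 9.81e-08). In the comparison of low-Lcn2 cells, Klf9 averaged 0.172 and 0.140 UMIs per thinned cell in the old controls, 0.447 and 0.341 in the low-Lcn2 LPS cells and 0.133 and 0.128 in the other LPS cells. Fmo2, a flavin monooxygenase, averaged 0.0679 and 0.0409, then 0.263 and 0.435, then 0.0512 and 0.0762. Hc averaged 2.85 and 2.95, then 1.47 and 2.05, then 0.246 and 0.547. These genes were chosen after their values were seen.

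Single cells carried some transcripts of other types. Igkc had 4130 UMIs in the sum of old control 1, against 23, 7 and 4 in the other old libraries, and 99.6% of its thinned UMIs there lay in 1 cell. S100a8 had 141 UMIs in old control 2, with 94.1% of the thinned UMIs in 1 cell. Neither gene is named in a result above, but genes of this kind were not taken out of the counts of called genes. With DESeq2, 2 of the 3 measured B cell markers were called lower.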
